A study of Homo sapiens with 6 samples.

Results

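The genes described here encode subunits of cohesin and condensin, a pair of ring-shaped protein complexes that hold and fold chromosomes. Genes were taken by symbol from a fixed list of 10: SMC1A, SMC3, RAD21, STAG1 and STAG2 for cohesin, and SMC2, SMC4, NCAPD2, NCAPG and NCAPH for condensin. All 10 were found among the 28317 genes of the deposited tables, 1 row each, and all 10 entered the test. Messenger RNA was sequenced from A549, an established line of human lung adenocarcinoma cells, grown in DMEM with fetal bovine serum. The UXS1 KO cells carried lentiCRISPR v2, a lentiviral vector that delivers Cas9 and a guide, with 1 guide against UXS1, the enzyme that makes UDP-xylose. The CTRL cells carried the same vector with a non-targeting guide. All cultures were selected in puromycin for 5 days and collected on day 7 after infection, with 3 libraries per group. The series describes biological triplicates, but the labels do not say whether the 3 cultures of a group were infected separately and mention no picking of clones. The p-values therefore cover no more than the variation between these 3 cultures a group, which may be technical.

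Each SMC protein is a long coiled coil with an ATPase head, and SMC proteins work in pairs. In cohesin, SMC1A and SMC3 are closed into a ring by the kleisin RAD21, and STAG1 or STAG2 binds RAD21. Cohesin extrudes chromatin loops in interphase and holds sister chromatids together from replication until anaphase. In condensin, SMC2 and SMC4 are bridged by a kleisin that carries a pair of HEAT-repeat subunits, and the complex compacts chromosomes for mitosis. Condensin I uses NCAPH, NCAPD2 and NCAPG with SMC2 and SMC4, while condensin II pairs the same SMC proteins with NCAPH2, NCAPD3 and NCAPG2.

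All 10 subunit genes were lower in UXS1 KO cells, and the condensin genes lay lower than most cohesin genes. All 5 condensin genes and all 5 cohesin genes fell at an edgeR adjusted p under 0.05, where 23.7% of the 15757 genes tested fell. CPM here are read counts scaled to the size of each library. Of 11133 tested genes whose mean CPM reached 5, as that of all members did, 30.0% fell. Each of the 10 members also had every UXS1 KO library under every CTRL library in CPM, as 26.9% of all tested genes did. The median log2 fold change (UXS1 KO minus CTRL) was -0.65 over the condensin genes and -0.31 over the cohesin genes, against -0.0030 over all genes tested. In bulk RNA, fewer cells in the phases that use a transcript and less of that transcript per cell cannot be told apart.

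Promoters of the members were searched for the letters of elements known from genes of the cell division cycle, and the sequences printed are those of the 4 members with a match to the first of these elements. Condensin and other mitotic genes are commonly under the cell cycle genes homology region, or CHR (TTTGAA), often beside NF-Y boxes (CCAAT), and replication genes under E2F sites, here searched as TTCGCGC or TTGGCGC. Both strands of the 250 bases before each RefSeq start (GRCh38.p14) were searched. Of the 10 members 9 had an entry, with 14 windows, and the promoter of RAD21 was not analysed here. Matches are in capitals below, so TTCAAA and ATTGG are the CHR and NF-Y letters read on the other strand, and no matches overlapped. NCAPG, NCAPD2 and SMC4 are the condensin genes with a CHR match and SMC3 is the cohesin gene with one.
NCAPG (chr4:17810729-17810978, plus strand): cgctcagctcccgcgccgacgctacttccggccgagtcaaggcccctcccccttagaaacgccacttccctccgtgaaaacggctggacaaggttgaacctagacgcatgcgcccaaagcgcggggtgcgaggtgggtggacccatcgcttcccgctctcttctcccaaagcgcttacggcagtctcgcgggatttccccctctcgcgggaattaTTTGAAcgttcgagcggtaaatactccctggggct
NCAPD2 (chr12:6493852-6494101, plus strand): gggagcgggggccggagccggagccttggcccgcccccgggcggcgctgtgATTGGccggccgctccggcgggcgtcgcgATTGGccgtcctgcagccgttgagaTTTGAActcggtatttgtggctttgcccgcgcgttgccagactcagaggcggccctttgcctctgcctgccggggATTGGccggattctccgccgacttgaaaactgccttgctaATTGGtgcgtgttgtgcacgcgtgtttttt
SMC4 (chr3:160399400-160399649, plus strand): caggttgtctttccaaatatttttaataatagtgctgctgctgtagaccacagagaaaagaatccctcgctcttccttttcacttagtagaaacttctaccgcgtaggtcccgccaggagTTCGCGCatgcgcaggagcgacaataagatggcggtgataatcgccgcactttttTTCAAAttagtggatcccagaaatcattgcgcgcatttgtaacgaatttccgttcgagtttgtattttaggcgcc
SMC3 (chr10:110567445-110567694, plus strand): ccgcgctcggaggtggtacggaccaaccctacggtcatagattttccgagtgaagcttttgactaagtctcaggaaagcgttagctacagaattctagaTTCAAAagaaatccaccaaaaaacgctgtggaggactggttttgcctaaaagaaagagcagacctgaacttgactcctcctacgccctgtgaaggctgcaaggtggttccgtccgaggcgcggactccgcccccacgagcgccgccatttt

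The CHR letters lay 35 bases before the start of NCAPG, 145 before that of NCAPD2, 75 before that of SMC4 (other strand) and 151 before that of SMC3 (other strand). Thus 3 of 5 condensin genes and 1 of 4 cohesin genes held them, and 13.3% of all 35116 promoter windows did. The former are counts of genes and the latter is a share of windows. Distances are to RefSeq starts, and for SMC4 the match was in 1 of its 2 windows. The GENCODE positions given below for NCAPG, NCAPD2 and SMC4 begin before their CHR matches, so these matches lie inside the GENCODE genes. The SMC3 match lies before both starts. NCAPH and SMC2 held no CHR letters, nor did the condensin II genes searched, NCAPD3 and NCAPG2 (0 of 2). Any relation between these letters and the size of the falls was not tested. NCAPD2 also held 4 CCAAT matches, at 199, 170, 70 and 30 bases before its start, and NCAPH held 1 at 112 bases. CCAAT matches were found in STAG1, STAG2 and the condensin II gene NCAPD3 too, and in 32.0% of all windows. A match to the E2F letters searched was found in SMC4, 130 bases before the start, and in STAG2, against 4.24% of all windows. Other forms of the E2F site were not searched. One of them, TTCCCGC, occurs in the NCAPG sequence above and in a window of SMC1A, among others. STAG2 has 3 windows and SMC1A, SMC2, SMC4 and NCAPD3 have 2 each, which gives these genes more letters to match. No match to any of the letters searched was found in the windows of SMC1A, SMC2 or NCAPG2. Such matches are a description of letters and no measure of binding.

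The libraries were even in depth, and the UXS1 transcript was lower in the UXS1 KO libraries, where 23.7% of all tested genes fell. Total counts ran from 21121489 to 22160405 per library. UXS1 stood at 34.9, 34.6 and 34.2 CPM in UXS1 KO, against 61.2, 65.1 and 65.4 CPM in CTRL (log2 fold change -0.89, SE 0.048, edgeR adjusted p = 2.2e-14). Such a fall in RNA does not show that the gene was edited or its protein lost. Of 5 epithelial markers 3 rose (CDH1, KRT19 and EPCAM), where 24.5% of all tested genes rose, and KRT8 and KRT18 did not pass the test. The summed level of the 5 epithelial markers ran from 8573 to 8821 TPM (a transcript level scaled to gene length and library) in UXS1 KO and from 8167 to 8805 TPM in CTRL. The 5 endothelial markers together stayed under 1 TPM in each library, at 0.701 to 0.831 TPM in UXS1 KO and 0.518 to 0.927 TPM in CTRL. The 5 fibroblast markers summed to 6.12 to 8.10 TPM in UXS1 KO and 6.07 to 6.42 TPM in CTRL, with COL1A2 at 0 counts in all libraries. Of these LUM rose, at 68 counts over the UXS1 KO libraries and 34 over the CTRL libraries (log2 fold change 0.99, edgeR adjusted p = 0.011), and COL1A1 did not pass the test. Of 5 leukocyte markers 3 were in the table, and they summed to 1.41 to 2.16 TPM in UXS1 KO and 0.0965 to 0.337 TPM in CTRL. CD3E had no count in any library, and LYZ was the marker that rose (log2 fold change 3.04, edgeR adjusted p = 6.2e-06). LYZ was low, at 52 counts over the UXS1 KO libraries and 6 over the CTRL libraries. Exons on the opposite strand cover 34.0% of its exonic length. The part of these markers in the results was not tested.

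Among the ring-forming SMC subunits of cohesin, both fell and SMC3 had the larger fold change. SMC3 (ENSG00000108055.10, GRCh38 chromosome 10, 110567691 to 110604636, plus strand), whose acetylation locks cohesin on replicated DNA, had 82.4, 82.5 and 81.2 CPM in UXS1 KO, against 122, 125 and 114 CPM in CTRL. The UXS1 KO libraries lay close together and well under the lowest CTRL library. SMC3 stood at 68.0% of the CTRL mean, a log2 fold change of -0.56 ± 0.041 (SE) at an edgeR adjusted p of 1.4e-11. SMC1A (ENSG00000072501.18, chromosome X, 53374149 to 53422728, minus strand), the partner of SMC3 in the ring, had 177, 174 and 168 CPM in UXS1 KO, against 217, 217 and 211 CPM in CTRL. The groups did not overlap, with a log2 fold change of -0.31 ± 0.036 (SE) and an edgeR adjusted p of 6.2e-08. Per gene length the pair changed order. SMC3 averaged 50.3 ± 0.398 TPM and SMC1A 57.5 ± 1.19 TPM in UXS1 KO, whereas in CTRL SMC3 averaged 74.0 ± 3.29 TPM and SMC1A 71.5 ± 1.96 TPM (SD, n = 3 each), with overlapping ranges in CTRL only. The ratio of SMC3 to SMC1A TPM was 0.858, 0.876 and 0.889 in UXS1 KO, against 1.04, 1.07 and 1.00 in CTRL. Each UXS1 KO ratio was under each CTRL ratio.

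The kleisin of cohesin also fell. RAD21 (ENSG00000164754.15), the subunit that separase cuts at anaphase, had 171, 165 and 164 CPM in UXS1 KO, against 227, 219 and 213 CPM in CTRL. There was no overlap between the groups. RAD21 stood at a log2 fold change of -0.40 ± 0.037 (SE) and an edgeR adjusted p of 1.2e-09. RAD21 was the most abundant cohesin transcript per length in both groups, at 95.2 ± 2.27 TPM in UXS1 KO and 126 ± 5.83 TPM in CTRL (SD, n = 3 each). Exons of genes on the opposite strand cover 14.2% of its exonic length.

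The STAG subunits had the smallest changes of the 10. STAG2 (ENSG00000101972.19, chromosome X, 123960212 to 124422664, plus strand), the main STAG protein of dividing cells, had 108, 110 and 109 CPM in UXS1 KO, against 136, 127 and 130 CPM in CTRL. STAG1 (ENSG00000118007.13, chromosome 3, 136336233 to 136752403, minus strand), its less abundant paralog, had 21.8, 24.3 and 21.5 CPM in UXS1 KO, against 27.0, 27.1 and 26.1 CPM in CTRL. The groups of both genes stayed apart, though the gap was narrow for STAG1. The log2 fold changes were -0.27 for STAG2 (SE 0.038, edgeR adjusted p = 2e-06) and -0.25 for STAG1 (SE 0.062, edgeR adjusted p = 0.0018). The ratio of STAG2 to STAG1 TPM was 4.73, 4.33 and 4.83 in UXS1 KO and 4.80, 4.48 and 4.79 in CTRL, with overlapping ranges. STAG1 shares 21.2% of its exonic length with PCCB, a mitochondrial carboxylase gene on the opposite strand, which rose (log2 fold change 0.14, edgeR adjusted p = 0.025). No source used here says whether reads were assigned by strand, so reads of STAG1 and PCCB cannot be told apart there.

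**Figure D1:**
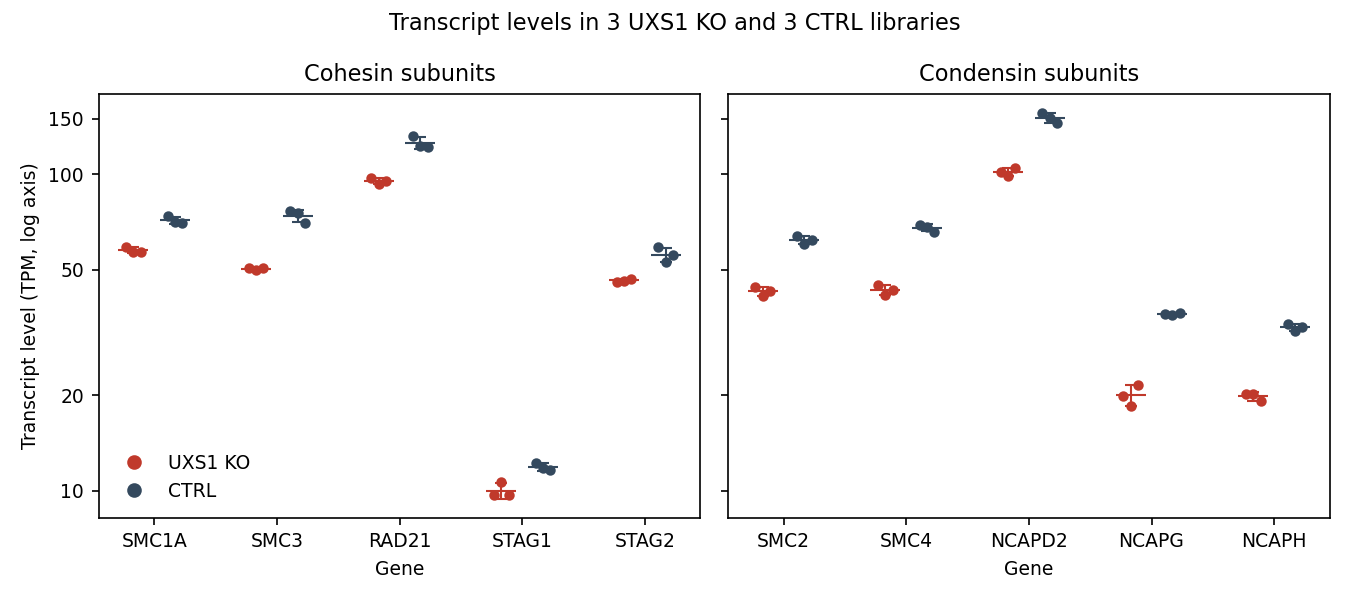
Transcript level per gene length (TPM, log axis) of the 5 cohesin genes (left panel) and the 5 condensin genes (right panel) in the 3 UXS1 KO libraries (red) and the 3 CTRL libraries (dark blue-grey). Points are libraries, horizontal marks are means and bars are SD, and for each gene the UXS1 KO points lie under the CTRL points.

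Both SMC genes of condensin fell. SMC2 (ENSG00000136824.19, chromosome 9, 104094260 to 104141417, plus strand) had 81.5, 77.9 and 78.3 CPM in UXS1 KO, against 116, 114 and 115 CPM in CTRL. SMC4 (ENSG00000113810.16, chromosome 3, 160399274 to 160434962, plus strand) had 104, 98.8 and 99.4 CPM in UXS1 KO, against 159, 163 and 154 CPM in CTRL. Both are ATPase arms shared by condensin I and II, and neither gene had overlapping groups. The log2 fold changes were -0.54 for SMC2 (SE 0.039, edgeR adjusted p = 9.9e-12) and -0.65 for SMC4 (SE 0.039, edgeR adjusted p = 2.2e-13). Per length the pair was nearly level, with SMC4 to SMC2 TPM ratios of 1.02, 1.01 and 1.01 in UXS1 KO and 1.09, 1.13 and 1.06 in CTRL. The ratios were thus lower in all 3 UXS1 KO libraries. Exons of TRIM59 and IFT80 on the opposite strand cover 25.6% of SMC4. TRIM59 fell (log2 fold change -0.49, edgeR adjusted p = 5.8e-07), and IFT80 stood at 0.03 (edgeR adjusted p = 0.78).

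The kleisin and the G subunit of condensin I had the deepest falls of the 10 genes. NCAPG (ENSG00000109805.10, chromosome 4, 17810902 to 17844862, plus strand), a HEAT-repeat subunit that helps anchor DNA, had 27.8, 26.1 and 29.7 CPM in UXS1 KO, against 49.2, 51.0 and 50.7 CPM in CTRL. That is 55.4% of the CTRL mean, with a wide gap between the groups. Its log2 fold change, -0.85 ± 0.053 (SE), lay at percentile 1.21 among all tested genes and had an edgeR adjusted p of 5.7e-13. LCORL, on the opposite strand, covers 33.1% of its exonic length and had 9.48 to 11.3 CPM in UXS1 KO and 12.2 to 13.5 CPM in CTRL (log2 fold change -0.31, edgeR adjusted p = 0.0049). NCAPH (ENSG00000121152.10, chromosome 2, 96335787 to 96373845, plus strand), the kleisin, had 38.1, 38.6 and 35.5 CPM in UXS1 KO, against 62.0, 61.4 and 61.6 CPM in CTRL. The CTRL libraries were almost level and all above the UXS1 KO libraries. The NCAPH log2 fold change was -0.72 ± 0.047 (SE), with an edgeR adjusted p of 1.2e-12.

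NCAPD2 (ENSG00000010292.13, chromosome 12, 6493356 to 6531955, plus strand), the other HEAT-repeat subunit of condensin I, had 189, 186 and 191 CPM in UXS1 KO, against 284, 286 and 269 CPM in CTRL. The groups did not overlap, with a log2 fold change of -0.57 ± 0.036 (SE) and an edgeR adjusted p of 7.9e-13. Its transcript stood far above those of its partners per length. It averaged 102 ± 2.88 TPM in UXS1 KO and 151 ± 5.58 TPM in CTRL, while NCAPH averaged 19.9 ± 0.638 TPM in UXS1 KO and 32.9 ± 0.831 TPM in CTRL (SD, n = 3 each). The ratio of NCAPG to NCAPD2 TPM was 0.196, 0.188 and 0.207 in UXS1 KO and 0.231, 0.238 and 0.252 in CTRL. The ratio of NCAPH to NCAPD2 TPM was 0.199, 0.205 and 0.183 in UXS1 KO and 0.216, 0.212 and 0.227 in CTRL. Both ratios were lower in all 3 UXS1 KO libraries than in any CTRL library. Exons of MRPL51 on the opposite strand cover 7.49% of the exonic length of NCAPD2. MRPL51 averaged 209 TPM in UXS1 KO and 230.5 TPM in CTRL (log2 fold change -0.14, edgeR adjusted p = 0.014). With the strand setting unknown, reads of the 2 genes cannot be told apart there, which limits the NCAPD2 level and both ratios.

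In order of log2 fold change the 10 genes ran from NCAPG through NCAPH, SMC4, NCAPD2, SMC3, SMC2, RAD21, SMC1A and STAG2 to STAG1. Thus 4 of the 5 cohesin genes changed less than every condensin gene. SMC3 stood between NCAPD2 and SMC2, apart from each by less than 1 SE of a single gene, and the differences were not tested. STAG2 and STAG1 also differed by less than 1 SE of a single gene. In order of level (TPM), NCAPD2 and RAD21 led and STAG1 was last in both groups. Neighbours whose ranges overlapped were SMC4 and SMC2, and NCAPG and NCAPH, in UXS1 KO, and SMC3 and SMC1A in CTRL.

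**Figure D2:**
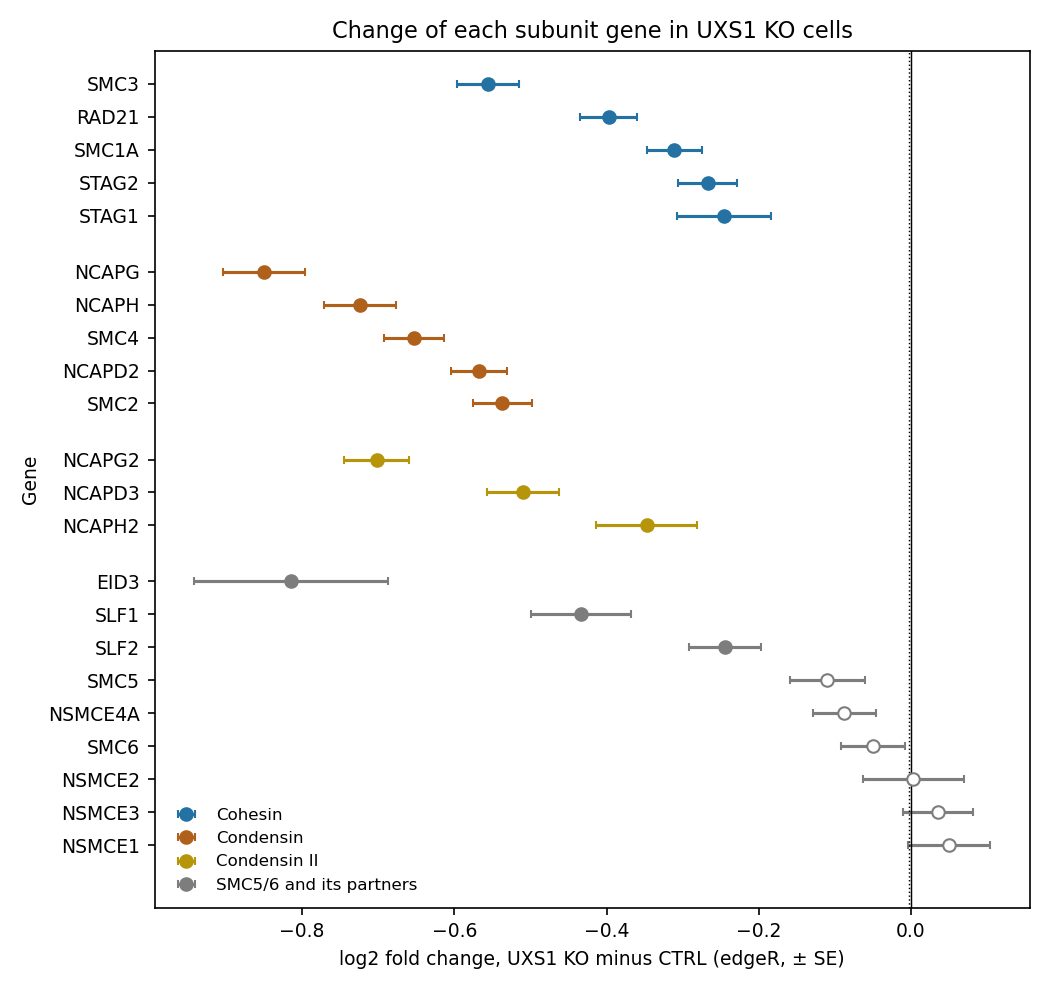
The log2 fold change (UXS1 KO minus CTRL) from edgeR, with bars of 1 SE, of the genes of cohesin, condensin, condensin II and the SMC5/6 group. Filled points passed an adjusted p under 0.05 and open points did not, the solid line marks 0 and the dotted line the median of all genes tested; the condensin genes run from -0.85 to -0.54 and the cohesin genes from -0.56 to -0.25.

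Set against cohesin within each library, condensin transcripts were lower in UXS1 KO cells. The 5 condensin genes summed to 231, 220 and 231 TPM in UXS1 KO, against 359, 348 and 342 TPM in CTRL. The 5 cohesin genes summed to 262, 256 and 259 TPM in UXS1 KO, against 353, 334 and 329 TPM in CTRL. Condensin was thus at 65.0% and cohesin at 76.5% of the CTRL mean. Single genes weigh heavily in these sums. NCAPD2 gave 102 TPM of the condensin sum in UXS1 KO and 151 TPM in CTRL, and RAD21 gave 95.2 and 126 TPM of the cohesin sum. The overlap of NCAPD2 with MRPL51 therefore limits the condensin sum and its ratio to cohesin as well. The ratio of condensin to cohesin was 0.879, 0.859 and 0.892 in UXS1 KO and 1.02, 1.04 and 1.04 in CTRL, with no overlap. These sums and ratios are given without a p, because the genes were chosen with earlier results of these data known.

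**Figure D3:**
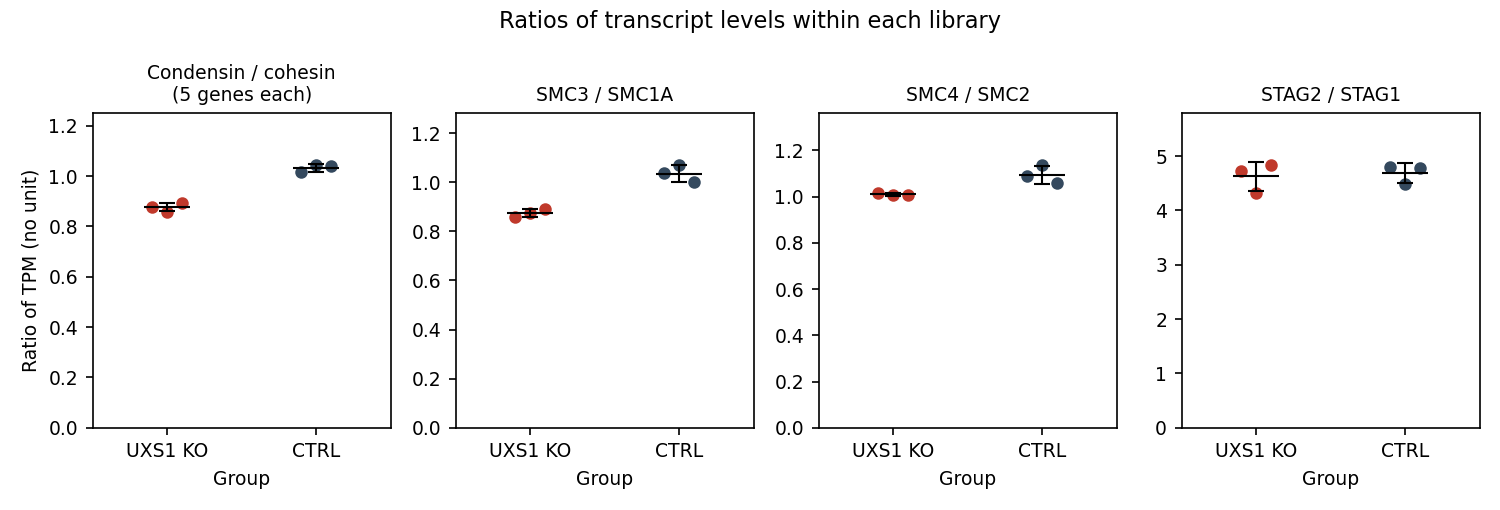
Ratios of TPM within each library for condensin over cohesin (5 genes each), SMC3 over SMC1A, SMC4 over SMC2 and STAG2 over STAG1, in 3 UXS1 KO (red) and 3 CTRL libraries (dark blue-grey). Points are libraries, horizontal marks are means and bars are SD, the axes start at 0, and UXS1 KO and CTRL points are apart in each panel but that of STAG2 over STAG1.

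Condensin II fell as well, and unevenly. NCAPG2 had 60.2, 58.5 and 63.3 CPM in UXS1 KO, against 101, 96.9 and 98.8 CPM in CTRL (log2 fold change -0.70, SE 0.042, edgeR adjusted p = 2.3e-13). NCAPD3 had 41.3, 41.9 and 42.8 CPM in UXS1 KO, against 62.4, 57.2 and 59.6 CPM in CTRL (log2 fold change -0.51, SE 0.047, edgeR adjusted p = 1.2e-09). The kleisin NCAPH2 had 23.5, 26.2 and 21.1 CPM in UXS1 KO, against 29.9, 29.4 and 30.8 CPM in CTRL (log2 fold change -0.35, SE 0.066, edgeR adjusted p = 9.1e-05). All 3 had every UXS1 KO library under every CTRL library, as 26.9% of all tested genes did. The G subunit led in condensin II as in condensin I. The summed TPM of NCAPD2, NCAPG and NCAPH was 2.33, 2.23 and 2.34 times that of the condensin II subunits in UXS1 KO and 2.39, 2.52 and 2.34 times in CTRL, and these ranges overlapped.

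A further SMC pair of human cells, SMC5 and SMC6, which acts in DNA repair, did not pass the test. SMC5 had 39.4, 38.1 and 38.2 CPM in UXS1 KO, against 42.2, 42.6 and 40.1 CPM in CTRL (log2 fold change -0.11, SE 0.050, edgeR adjusted p = 0.07). Without CTRL replicate 3, SMC5 was called lower (edgeR adjusted p = 0.041). SMC6 had 81.2, 79.6 and 83.8 CPM in UXS1 KO, against 87.6, 84.4 and 81.1 CPM in CTRL (log2 fold change -0.05, SE 0.042, edgeR adjusted p = 0.34). Against this pair, summed SMC2 and SMC4 TPM stood at 1.79, 1.74 and 1.70 in UXS1 KO and at 2.44, 2.50 and 2.56 in CTRL. Summed SMC1A and SMC3 TPM over the same pair stood at 2.21, 2.24 and 2.12 in UXS1 KO and at 2.76, 2.84 and 2.81 in CTRL. Of the 9 genes of the SMC5/6 group 3 fell, a share near the 23.7% of all tested genes that fell. None of the 9 rose, where 24.5% of all tested genes rose, and the group's median log2 fold change was -0.09. The 3 were the recruitment factors SLF1 (log2 fold change -0.43) and SLF2 (-0.24) and EID3 (-0.81), a mainly germline counterpart of NSMCE4A that was low, at a mean of 4.01 CPM in UXS1 KO and 7.06 CPM in CTRL.

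Genes that load cohesin, release it or position it fell by small amounts. Of 6 such genes 5 fell, against 23.7% of all tested genes, and MAU2 did not pass. The log2 fold changes of the 6 had a median of -0.25. The loader NIPBL stood at -0.30 (SE 0.059), the release factor WAPL at -0.23 (SE 0.054), its partner PDS5A at -0.21 (SE 0.040) and CTCF, which stops loop extrusion, at -0.27 (SE 0.040). MAU2, the other subunit of the loader, had 39.9, 38.2 and 39.9 CPM in UXS1 KO, against 39.9, 37.7 and 37.6 CPM in CTRL (log2 fold change 0.03, SE 0.051, edgeR adjusted p = 0.61). With log2(TPM + 1) and no filter, NIPBL (limma adjusted p = 0.079) and WAPL (0.061) were no longer called.

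Genes that make cohesion during replication or end it at anaphase had lower medians. Of 11 cohesion establishment genes 8 fell and 1 rose, where 23.7% of all tested genes fell and 24.5% rose. The median log2 fold change of the 11 was -0.49. CDCA5, or sororin, which shields cohesin from WAPL, had 56.8, 59.1 and 56.6 CPM in UXS1 KO, against 91.5, 92.7 and 87.6 CPM in CTRL (log2 fold change -0.66). ESCO2, the acetyltransferase that marks SMC3 in S phase, stood at -0.61, the fork protein TIMELESS at -0.38 and WDHD1 at -0.57. ESCO1, the acetyltransferase active through interphase, did not pass (log2 fold change 0.08, SE 0.064, edgeR adjusted p = 0.29). HDAC8, which removes that acetyl mark, was the gene that rose (log2 fold change 0.25, SE 0.093, edgeR adjusted p = 0.027). All 8 genes of cohesin protection and cleavage fell, again against 23.7% of all tested genes, with a median of -0.67. The kinases PLK1, BUB1 and AURKB stood at -0.75, -0.80 and -0.67, and ESPL1, the separase, at -0.64. Of 4 meiotic cohesin genes REC8 and STAG3 were tested and neither passed (edgeR adjusted p = 0.39 and 0.97). SMC1B and RAD21L1 were too low to test.

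Partners of condensin in mitosis fell too. Of 7 such genes 6 fell, where 23.7% of all tested genes fell, and MCPH1 did not pass. The median of the 7 was -0.70 on the log2 scale. TOP2A, the topoisomerase of mitotic chromosomes, had 359, 359 and 366 CPM in UXS1 KO, against 615, 576 and 567 CPM in CTRL (log2 fold change -0.70). The chromokinesin KIF4A stood at -0.83, MKI67, the proliferation marker that coats mitotic chromosomes, at -0.87 and cyclin B (CCNB1) at -0.72. These 4 transcripts are all linked to dividing cells, and their part in the fall of the subunit genes was not tested.

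**Figure D4:**
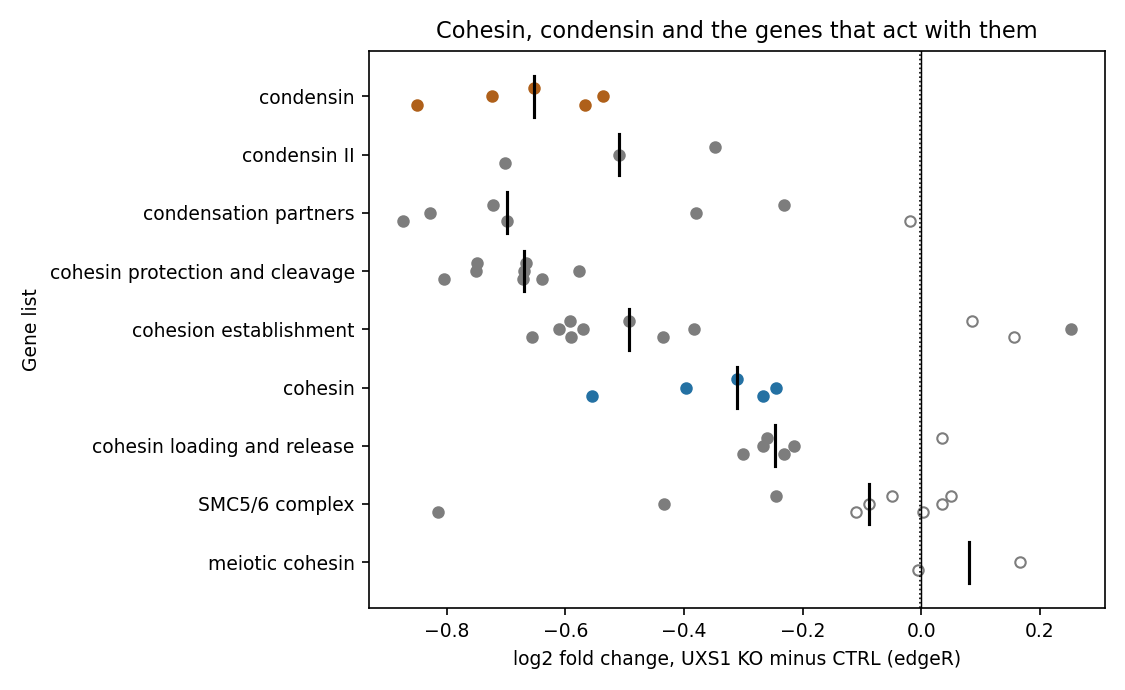
The log2 fold change (UXS1 KO minus CTRL, edgeR) of each tested gene, by list, with condensin in brown, cohesin in blue and other lists in grey. Filled points passed an adjusted p under 0.05, vertical bars are list medians, the dotted line is the median of all genes tested, and the medians run from -0.70 for condensation partners to 0.08 for the 2 tested meiotic genes.

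Outside these lists, a few genes matched the mean pattern of each complex over the 6 libraries most closely. Likeness was the Euclidean distance between log2 CPM values, each less its CTRL mean, over 10781 named genes whose mean CPM reached 5. A small distance therefore mostly reflects a similar fold change, and variation shared between libraries of a group was not tested. For cohesin the nearest were DEK (distance 0.021, log2 fold change -0.36), HSP90AA1 (0.043, -0.34) and PABPC4 (0.046, -0.35). For condensin KIF11 (0.026, -0.68) and SH3BP4 (0.057, -0.67) were the nearest.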

How the data were processed

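RNA from 6 A549 cultures, 3 UXS1 KO and 3 CTRL by sample title, was counted per gene by the authors. STAR, featureCounts, DESeq2 and the hg38 build are named, without versions, per the submitters' processing notes. The strand setting and the annotation release were not given in the sources used here. Values in the deposited count table are whole numbers with unequal totals, taken as raw counts, and the deposited TPM table sums to 1000000 per library.

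Of 28317 genes, 15757 passed edgeR's filterByExpr (minimum count 10) and were scaled with TMM factors (0.987 to 1.01). Genes were tested in edgeR 4.0.16 under R 4.3.3 with its quasi-likelihood F test, two-sided, with group as the only term, Benjamini-Hochberg adjustment over all genes tested and a threshold of 0.05. Each edgeR SE was computed as the size of the log2 fold change over the square root of the F value of that test. The biological coefficient of variation was 3.32%. CPM use the same factors. Ratios between genes use TPM. Members had 462 to 6247 counts per library. The test was first tried on simulated counts with 200 changed genes. It recovered 68% of those changed 1.25-fold, 72% at 1.5-fold, 94% at 2-fold and 100% at 4-fold. Of its 176 calls 9 were of unchanged genes. The simulation gave all genes the same dispersion and changed far fewer genes than were called in the data.

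Members, gene lists and promoter motifs were chosen with earlier results of these data known. The text names all members, the condensin II subunits, UXS1 and up to 4 genes of each other list with the smallest adjusted p, plus 3 genes most alike each complex, of which 1 is not reported here. MAU2, MCPH1, ESCO1, HDAC8, SMC6, markers and overlapping neighbours were added after their values were seen. GENCODE 29 (GRCh38, another name for hg38) gave gene positions and shared exonic bases, and RefSeq (GRCh38.p14) the promoter sequences. Alternatives were DESeq2 1.42.0, limma-voom (limma 3.58.1), RLE, upper-quartile and library-size scaling, no filter, a mean CPM cut of 5, a replicate block, leaving out each library, and limma-trend on log2(TPM + 1) or log2(TPM + 0.1).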

Additional observations from a re-analysis of the deposited data

How the results depend on the processing

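All 5 cohesin and all 5 condensin genes were called lower under each of the 17 alternatives. STAG1 had the highest adjusted p of the members throughout, up to 0.0337 with log2(TPM + 1) and no filter. The condensin median minus the cohesin median ran from -0.35 to -0.32. The median of all genes tested moved to 0.02 at most, with upper-quartile scaling. The difference in log2 condensin to cohesin TPM ratio ran from -0.25 to -0.22 over its alternatives, and that of STAG2 to STAG1 from -0.05 to 0.03. Over all genes 2855 to 4243 were called higher and 2661 to 3896 lower. Of the 26 other named genes with alternatives, NIPBL and WAPL lost their call with log2(TPM + 1) and no filter, and SMC5 was called lower without CTRL replicate 3 (edgeR adjusted p = 0.0405).

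Deviations from group means were hardly correlated between same-numbered libraries of the 2 groups (0.0055, 0.0157 and 0.034). For libraries of unlike numbers the correlations ran from -0.0272 to 0.0119. With 3 libraries a group, values this near 0 cannot settle whether the numbers pair the cultures. With the replicate block the difference of the medians was -0.34, with 5 and 5 members lower. By share of exonic length, overlaps on the opposite strand were largest for NCAPG, SMC4 and STAG1. That order leaves out the level of the neighbour. MRPL51, which overlaps NCAPD2, averaged 230.5 TPM in CTRL, and LCORL, which overlaps NCAPG, averaged 2.99 TPM in CTRL.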
